A study of Mus musculus with 3 samples.

Results

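The genes described here are 33 genes of DNA replication and mitosis, chosen by symbol in a table of read counts for 44788 genes. They cover replication licensing, deoxynucleotide synthesis, mitotic kinases, kinetochores and the spindle, and the rule lists them by name, although the list was drawn up with earlier results of these data known. All 33 were listed in the table, and all 33 were among the 15529 genes that passed a filter on low counts and were tested. The RNA came from cultured primary chondrocytes, which make cartilage, and the cells had been taken from knee joints of C57BL/6 mice. The cKO group, with 2 libraries, had the genotype Col2a1-CreERT2;Kdm6bf/f, and the control group, with 1 library, had Kdm6bf/f alone. Both groups therefore carried floxed alleles of Kdm6b, the gene of a histone H3 demethylase, and both were given 1 µM 4-hydroxytamoxifen for 48 h in medium with 10% serum. The Col2a1 promoter limits the drug-activated recombinase to cells that use it, so cells in the culture that do not would keep the gene. The control lacks the recombinase but not the drug, and the labels give neither the age of the mice nor whether the cultures came from separate animals.

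Total counts were 12577419 and 12636471 for the cKO libraries and 12489738 for the control library. Kdm6b had 84.2 and 74.1 CPM in cKO cells and 103.9 CPM in control cells (counts scaled to a common, TMM-normalised library size), and its log2 fold change of -0.39 ± 0.14 (SE) did not pass the test (edgeR adjusted p = 0.138). These gene-level counts include exons outside the floxed part and check the genotype only weakly. Chondrocyte markers were present in each library, and 10 of 12 fell in cKO, with a summed level of 18039 and 16674 CPM in cKO cells and 30011 CPM in control cells. Most of that sum was Col2a1, with 12527.3 and 11984.5 CPM in cKO cells and 20115.8 CPM in control cells. Col2a1 was not among the 10 (edgeR adjusted p = 0.283). Markers of fibroblasts and synovium summed to 20340 and 18415 CPM in cKO cells and 20901 CPM in control cells, with 2 of 10 higher, and those of osteoblasts to 47.5 and 49.5 CPM in cKO cells and 59.1 CPM in control cells, with 1 of 6 lower. Of the leukocyte markers, with sums of 9.15 and 8.13 CPM in cKO cells and 4.76 CPM in control cells, none of 7 was called and Emr1, Itgam and Cd3e had no count. Endothelial markers summed to 3.21 and 2.50 CPM in cKO cells and 0.806 CPM in control cells, with none of 6 called and Cdh5 and Emcn at no count, and mural markers to 1247 and 1409 CPM in cKO cells and 1211 CPM in control cells, with none of 6 called. Only 9 fibroblast and synovium, 3 osteoblast, 3 leukocyte, 2 endothelial and 5 mural markers passed the count filter. The rest of these lists were not tested and could not be called. In whole cultures such as these, a different share of dividing cells or of a cell type and a different amount of RNA per cell cannot be told apart, and the part of the marker shifts in the values below was not tested. For Xist, cKO replicate 1 had 2 counts, cKO replicate 2 had 10081 and the control had 1, while for the Y-linked gene Ddx3y cKO replicate 1 had 680, cKO replicate 2 had 0 and the control had 732. The cKO libraries therefore came from cells of different sex, with cKO replicate 1 like the control, and the part of this in the values below was not tested.

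A dividing cell first loads the ring-shaped MCM helicase onto replication origins, then copies its DNA with the help of the sliding clamp PCNA and a supply of deoxynucleotides made by ribonucleotide reductase and thymidylate synthase. In mitosis the Aurora, Polo and checkpoint kinases, the kinetochores and the spindle motors separate the copied chromosomes. The replication genes are known as targets of E2F transcription factors, while many mitotic genes carry CCAAT boxes and a CHR element, to which the MuvB complex binds with B-Myb or FOXM1 in dividing cells. In cartilage, chondrocytes of the proliferating zone of the growth plate use these genes and hypertrophic chondrocytes largely do not.

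Promoters are shown for the pair of members that passed the test, Rrm2 and Mcm5, and for Plk1 and Cdc20, a mitotic kinase and a mitotic exit factor, so that the replication and the mitotic type can be compared. Each runs from 250 bases before the start site to 50 after it, 5′ to 3′ on the gene's strand, from RefSeq on GRCm38.p6. Capitals mark, on either strand, an E2F-type motif (TTGGCGC or TTCGCGC), the CHR motif (TTTGAA) or a CCAAT box (CCAAT). Rrm2 lies at chr12:24708004-24708303, plus strand, Mcm5 at chr8:75109259-75109558, plus strand, Plk1 at chr7:122159185-122159484, plus strand and Cdc20 at chr4:118437294-118437593, minus strand.
Rrm2: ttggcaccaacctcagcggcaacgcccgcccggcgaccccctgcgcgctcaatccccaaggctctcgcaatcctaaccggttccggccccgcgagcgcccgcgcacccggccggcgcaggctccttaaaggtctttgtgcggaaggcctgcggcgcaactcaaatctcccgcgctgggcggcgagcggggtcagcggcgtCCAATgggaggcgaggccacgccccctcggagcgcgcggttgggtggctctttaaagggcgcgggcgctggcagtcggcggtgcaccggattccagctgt
Mcm5: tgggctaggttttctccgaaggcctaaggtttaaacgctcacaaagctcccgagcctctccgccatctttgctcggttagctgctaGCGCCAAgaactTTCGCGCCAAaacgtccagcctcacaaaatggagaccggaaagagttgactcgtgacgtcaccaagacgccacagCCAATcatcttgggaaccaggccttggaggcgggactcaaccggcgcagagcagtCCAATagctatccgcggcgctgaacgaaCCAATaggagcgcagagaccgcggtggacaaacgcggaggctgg
Plk1: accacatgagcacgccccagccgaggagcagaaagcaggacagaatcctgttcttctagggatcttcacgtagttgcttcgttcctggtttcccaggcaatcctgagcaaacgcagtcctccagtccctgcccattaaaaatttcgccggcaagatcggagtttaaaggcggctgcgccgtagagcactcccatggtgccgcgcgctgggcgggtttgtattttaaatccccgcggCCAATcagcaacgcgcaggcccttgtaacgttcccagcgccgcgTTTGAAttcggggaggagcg
Cdc20: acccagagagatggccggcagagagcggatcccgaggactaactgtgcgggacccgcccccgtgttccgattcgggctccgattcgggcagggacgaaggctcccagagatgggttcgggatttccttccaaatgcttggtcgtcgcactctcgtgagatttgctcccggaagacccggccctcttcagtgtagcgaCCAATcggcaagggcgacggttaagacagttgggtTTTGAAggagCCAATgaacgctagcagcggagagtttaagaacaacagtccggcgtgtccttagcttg
In Mcm5 the first capitals are E2F-type motifs, followed by 3 CCAAT boxes. Rrm2 holds 1 CCAAT box and no other motif of the search. Plk1 holds a CCAAT box and then a CHR motif, and Cdc20 holds a CHR motif between a pair of CCAAT boxes.

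Most replication and mitosis genes had small positive log2 fold changes in the cKO chondrocytes, and only Rrm2 and Mcm5 of the 33 passed the test. The comparison asks whether these genes differ between floxed chondrocytes with and without the recombinase. Rrm2, the small subunit of ribonucleotide reductase, rose 1.44-fold and Mcm5, a helicase subunit, rose 1.45-fold, while 0 members fell. Over all 15529 genes, 3.01% were called higher and 1.9% lower at an adjusted p under 0.05 (edgeR quasi-likelihood F test, Benjamini-Hochberg). Among the 8313 tested genes whose mean level lay within the range of the members, 13.4 to 304.6 CPM, 3.85% were called higher and 2.36% lower, so a count of 2 in 33 is near the background. Only the cKO pair gives the fit a residual degree of freedom, 1 in all, and the single control is assumed to vary in the same way. Neither Rrm2 nor Mcm5 passed in DESeq2 (adjusted p = 0.127 and 0.366), nor in edgeR with library totals alone, no filter, a mean of at least 5 CPM, or prior degrees of freedom of 5 or 3.

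More members were above the control than were called. The median log2 fold change of the 33 members was 0.21, with quartiles of 0.10 and 0.29, while over all genes tested the median was -0.0022 and the quartiles were -0.22 and 0.21. Within the CPM range of the members the median was 0.015 and the quartiles were -0.15 and 0.17. Both cKO libraries lay above the control for 24 members and below it for 1, with 8 between. Of all genes tested 36.6% lay above the control in both cKO libraries and 37.4% below, and within the CPM range of the members 40.7% lay above and 34.9% below. At an unadjusted p under 0.05 in edgeR, 6 members were higher and 0 lower, against 8.35% higher and 7.31% lower among all genes. Of the 8313 genes in the CPM range of the members, 835 were higher and 680 lower at that p. Summed over the 33 members, the level was 2553 and 2627 CPM in cKO cells and 2252 CPM in control cells. The median log2 ratio to the control was 0.13 in cKO replicate 1 and 0.27 in cKO replicate 2. As the members were chosen with earlier results of these data known, their direction is not independent of those results.

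**Figure D1:**
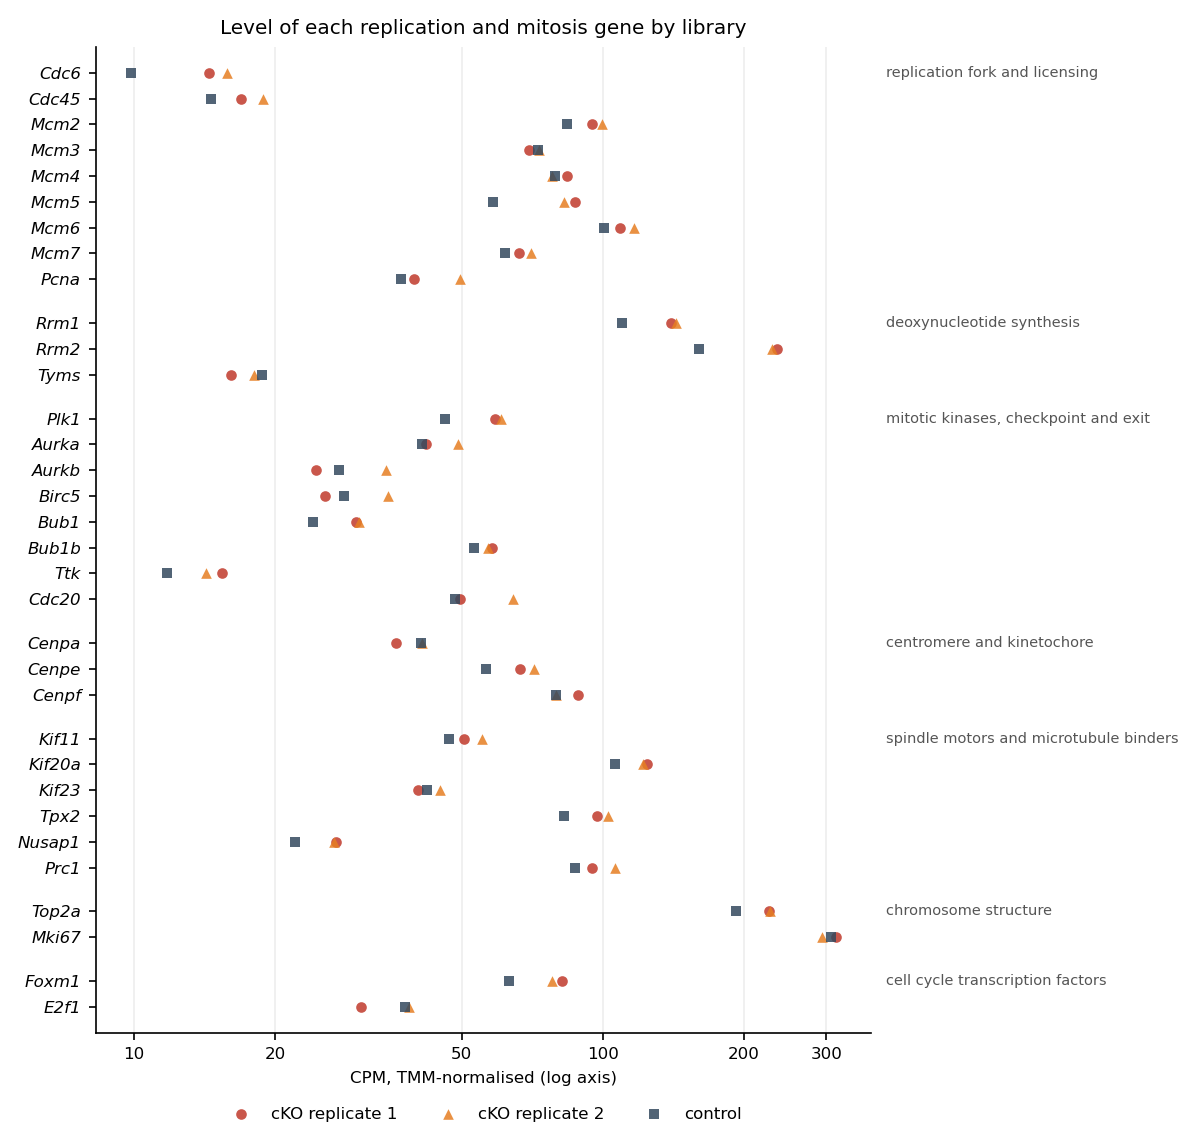
Level of each of the 33 genes in the 3 libraries, in CPM on a log axis, with a circle for cKO replicate 1, a triangle for cKO replicate 2 and a square for the control, grouped by role. The control square lies left of both cKO symbols for 24 genes and right of both only for Tyms.

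Members that load and run the replication fork were led by Mcm5 and Cdc6. Mcm5 (ENSMUSG00000005410.6, chr8:75109569-75128439, plus strand, GRCm38) had 87.0 and 82.6 CPM in cKO cells and 58.4 CPM in control cells. Both cKO libraries were above the control, and they differed from each other by less than from it. Its log2 fold change was 0.54 ± 0.14 (SE, edgeR adjusted p = 0.0323). Cdc6, which loads the MCM ring onto origins, had 14.5 and 15.8 CPM in cKO cells and 9.83 CPM in control cells. Its log2 fold change of 0.62 ± 0.23 (SE) was the largest of the 33 and rested on 122 control counts, and it did not pass (edgeR adjusted p = 0.166).

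The 6 subunits of the MCM ring had unequal log2 fold changes. Mcm2 had 94.7 and 99.8 CPM in cKO cells and 84.0 CPM in control cells (log2 fold change 0.21 ± 0.14, SE). Mcm6 had 109 and 116 CPM in cKO cells and 101 CPM in control cells, and Mcm7 had 66.2 and 70.4 CPM in cKO cells and 61.7 CPM in control cells, with log2 fold changes of 0.16 and 0.15. For these 3 subunits both cKO libraries lay above the control, by less than the test could call. Mcm3 had 69.7 and 73.2 CPM in cKO cells and 72.9 CPM in control cells, and Mcm4 had 84.1 and 77.8 CPM in cKO cells and 79.2 CPM in control cells, so the control lay between the cKO libraries. Per kb of exon, Mcm5 made up 18.8% and 17.7% of the summed level of Mcm2 to Mcm7 in cKO and 14.1% in the control, while the share of Mcm3 was 16.1% and 16.7% in cKO and 18.7% in the control. The difference between Mcm5 and its partners was not tested.

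The remaining fork genes gave smaller values. Cdc45, which joins the MCM ring in the active helicase, had 16.9 and 18.8 CPM in cKO cells and 14.6 CPM in control cells (log2 fold change 0.29 ± 0.21, SE). Pcna, the sliding clamp, had 39.5 and 49.5 CPM in cKO cells and 37.2 CPM in control cells, so the cKO libraries differed from each other by more than cKO replicate 1 differed from the control. Neither passed the test (edgeR adjusted p = 0.577 and 0.515). Of the 9 fork genes, 1 rose, 0 fell and 8 did not pass, with a median log2 fold change of 0.21. The counts of Pcna may be shared with the pseudogenes Pcna-ps1 and Pcna-ps2, which have rows of their own. Exons of Mcm7 overlap those of Ap4m1 and Cops6 on the other strand and hold Mir25 and Mir93. Those of Cdc45 overlap Ufd1 on the other strand.

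Of the 3 genes of deoxynucleotide synthesis, Rrm2 rose, and Rrm1 and Tyms did not pass. Rrm2 (ENSMUSG00000020649.11, chr12:24708241-24714146, plus strand, GRCm38) had 235 and 230 CPM in cKO cells and 161 CPM in control cells. The cKO libraries lay close together, at 232 ± 4 CPM (SD, n = 2), and well above the control. Its log2 fold change was 0.53 ± 0.14 (SE, edgeR adjusted p = 0.0243). Rrm1, the large subunit, had 139.6 and 143 CPM in cKO cells and 109.7 CPM in control cells, a log2 fold change of 0.37 ± 0.14 (SE) that did not pass (edgeR adjusted p = 0.158). The ratio of Rrm2 to Rrm1, per kb of exon, was 6.68 and 6.37 in cKO cells and 5.83 in control cells. Its size depends on the exon lengths used, 2771 bases for Rrm2 and 11012 for Rrm1, and is not a ratio of transcripts. Only its comparison between libraries is free of these lengths. Tyms, which makes thymidylate, had 16.1 and 18.0 CPM in cKO cells and 18.7 CPM in control cells. It was the only member with both cKO libraries below the control, and its log2 fold change of -0.14 ± 0.20 (SE) was the lowest of the 33 (edgeR adjusted p = 0.834). A row for the pseudogene Tyms-ps may take some of its reads.

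**Figure D2:**
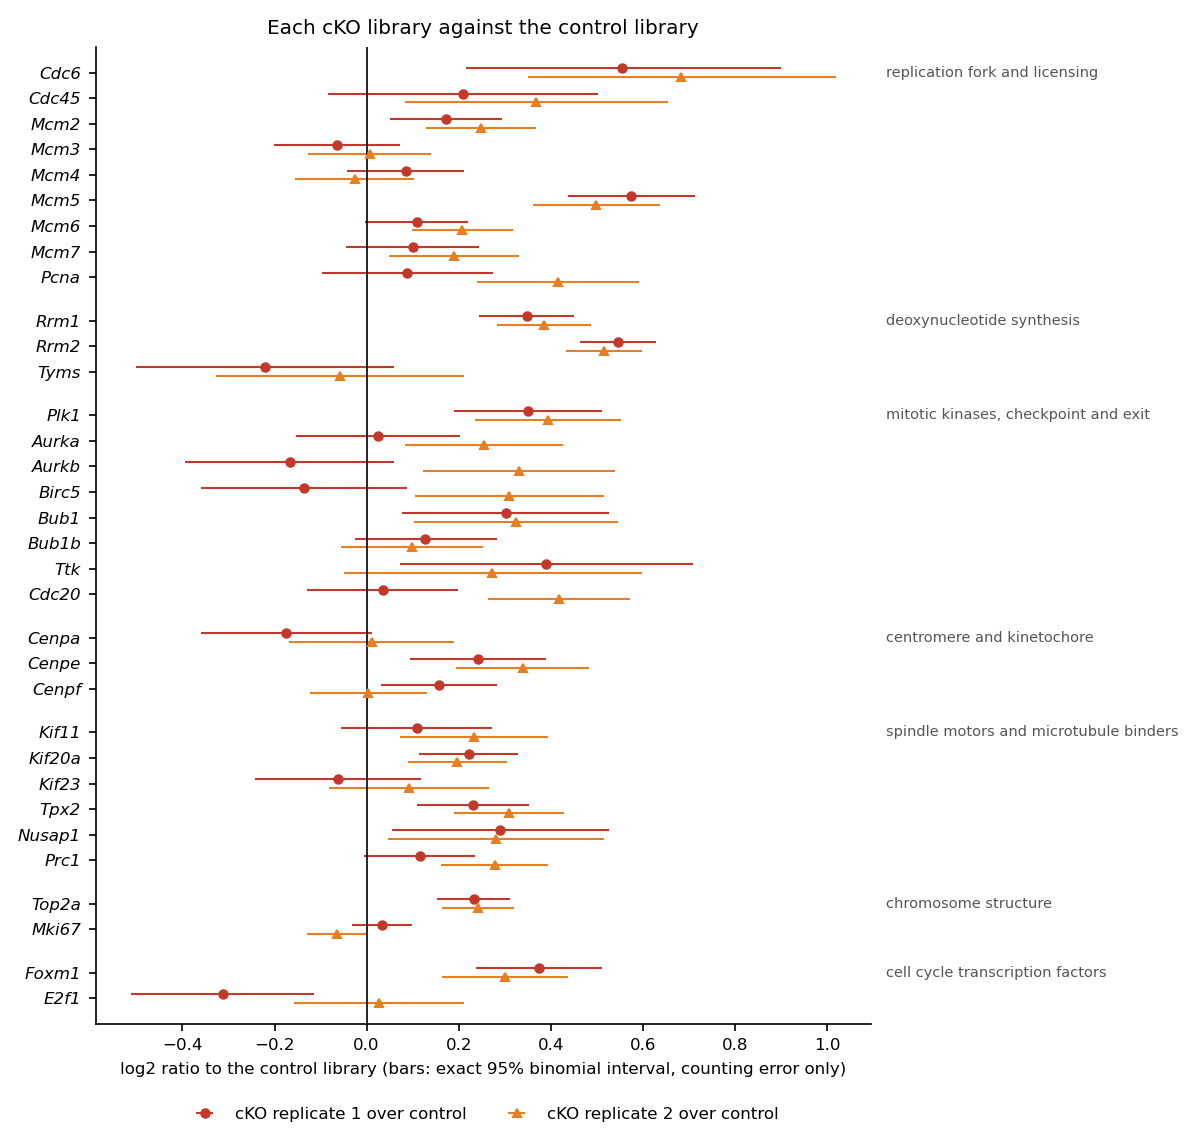
Log2 ratio of each cKO library to the control library for the 33 genes, with exact 95% binomial intervals that cover counting error only. The intervals of Rrm2 and Mcm5 lie above 0 in both libraries, at folds from 1.35 upward for Rrm2 and from 1.28 upward for Mcm5.

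For most members the counting interval of at least 1 cKO library included the control level. The exact 95% binomial interval of the ratio to the control lay above 1 in both cKO libraries for 13 members and below 1 in both for 0, against 18.1% and 13.8% of genes in the same CPM range. For Rrm2 the ratio was 1.46 (1.38 to 1.55) in cKO replicate 1 and 1.43 (1.35 to 1.51) in cKO replicate 2. For Mcm5 it was 1.49 (1.35 to 1.64) and 1.41 (1.28 to 1.56). Besides these, the 13 include Cdc6, Mcm2, Rrm1, Plk1, Bub1, Cenpe, Kif20a, Tpx2, Nusap1, Top2a and Foxm1. These intervals compare libraries, not genotypes, since variation between cultures is not in them.

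Mitotic kinases and checkpoint genes did not pass the test, although 8 of 8 had a positive log2 fold change, between 0.10 and 0.37. Plk1, the Polo-like kinase, had 58.8 and 60.6 CPM in cKO cells and 46.1 CPM in control cells. Both cKO libraries were above the control and close to each other, and the log2 fold change was 0.37 ± 0.15 (SE, edgeR adjusted p = 0.208). Bub1, a spindle checkpoint kinase, had 29.7 and 30.2 CPM in cKO cells and 24.1 CPM in control cells, a log2 fold change of 0.31 ± 0.18 (SE, edgeR adjusted p = 0.426). Ttk, the checkpoint kinase MPS1, had 15.4 and 14.2 CPM in cKO cells and 11.8 CPM in control cells. Bub1b, which encodes the checkpoint protein BUBR1, had 58.1 and 57.0 CPM in cKO cells and 53.2 CPM in control cells. In each of these 4 genes the control was the lowest library.

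In the other kinase and exit genes the cKO libraries lay apart. Aurkb, the Aurora kinase of the chromosomal passenger complex, had 24.4 and 34.5 CPM in cKO cells and 27.4 CPM in control cells. Birc5, which encodes survivin of the same complex, had 25.5 and 34.8 CPM in cKO cells and 28.0 CPM in control cells. In both genes the control lay between the cKO libraries, and their ratio per kb of exon stayed within 1.10 to 1.14 in all 3 libraries. Cdc20, which activates the ubiquitin ligase that ends mitosis, had 49.5 and 64.5 CPM in cKO cells and 48.3 CPM in control cells, and Aurka, the spindle pole kinase, had 41.9 and 49.1 CPM in cKO cells and 41.2 CPM in control cells. For Cdc20 and Aurka cKO replicate 1 was near the control and cKO replicate 2 above it. Exons of Plk1 and Cdc20 overlap Gm44985 and Elovl1 on the other strand, and whether the counting used strand is not given in the sources used here.

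Centromere and kinetochore genes gave 0 calls in 3. Cenpe, a kinetochore motor, had 66.6 and 71.3 CPM in cKO cells and 56.3 CPM in control cells, a log2 fold change of 0.29 ± 0.15 (SE, edgeR adjusted p = 0.351). Cenpf, a large kinetochore protein, had 88.6 and 79.6 CPM in cKO cells and 79.4 CPM in control cells. Cenpa, the histone H3 variant of centromeres, had 36.2 and 41.2 CPM in cKO cells and 40.9 CPM in control cells. For Cenpf cKO replicate 2 was close to the control, and for Cenpa the control lay within the cKO pair.

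Spindle motors and microtubule binders all had positive log2 fold changes, from 0.02 to 0.28, and 0 of 6 passed. Tpx2, which activates Aurora A on the spindle, had 97.0 and 102 CPM in cKO cells and 82.6 CPM in control cells, a log2 fold change of 0.27 ± 0.14 (SE, edgeR adjusted p = 0.367). Nusap1, which bundles spindle microtubules, had 26.9 and 26.7 CPM in cKO cells and 22.0 CPM in control cells. Kif20a, a cytokinesis motor, had 124 and 122 CPM in cKO cells and 106 CPM in control cells. In these genes both cKO libraries lay above the control. Kif11, the motor that pushes spindle poles apart, had 50.7 and 55.2 CPM in cKO cells and 47.0 CPM in control cells, and Prc1, a crosslinker of the central spindle, had 94.7 and 106 CPM in cKO cells and 87.4 CPM in control cells. Kif23, a motor of the central spindle, had 40.4 and 44.9 CPM in cKO cells and 42.2 CPM in control cells, so the control lay between them. Exons of Kif20a, Nusap1 and Prc1 overlap Cdc23, Oip5 and Rccd1 on the other strand.

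The usual proliferation marker had a log2 fold change close to 0. Mki67, the gene of the Ki-67 antigen that coats mitotic chromosomes, had 314 and 293 CPM in cKO cells and 307 CPM in control cells, a log2 fold change of -0.01 ± 0.14 (SE, edgeR adjusted p = 0.980). The control lay between the cKO libraries. Top2a, the topoisomerase that untangles copied chromosomes, had 226 and 228 CPM in cKO cells and 193 CPM in control cells, a log2 fold change of 0.24 ± 0.14 (SE, edgeR adjusted p = 0.432). Its cKO libraries lay close together above the control. The ratio of Mki67 to Top2a, per kb of exon, was 1.24 and 1.15 in cKO cells and 1.43 in control cells. Exons of Top2a overlap Gm23451 on the same strand.

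The transcription factors had log2 fold changes of opposite sign, and neither passed the test. Foxm1, which drives mitotic genes, had 81.8 and 77.7 CPM in cKO cells and 63.1 CPM in control cells, a log2 fold change of 0.34 ± 0.14 (SE, edgeR adjusted p = 0.239). E2f1, which drives replication genes, had 30.4 and 38.5 CPM in cKO cells and 37.8 CPM in control cells, a log2 fold change of -0.13 ± 0.17 (SE, edgeR adjusted p = 0.800). For Foxm1 both cKO libraries were above the control, while for E2f1 cKO replicate 1 was below it and cKO replicate 2 close to it. The difference between Foxm1 and E2f1 was not tested. Exons of Foxm1 overlap Gm44596 and Tex52 on the same strand.

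**Figure D3:**
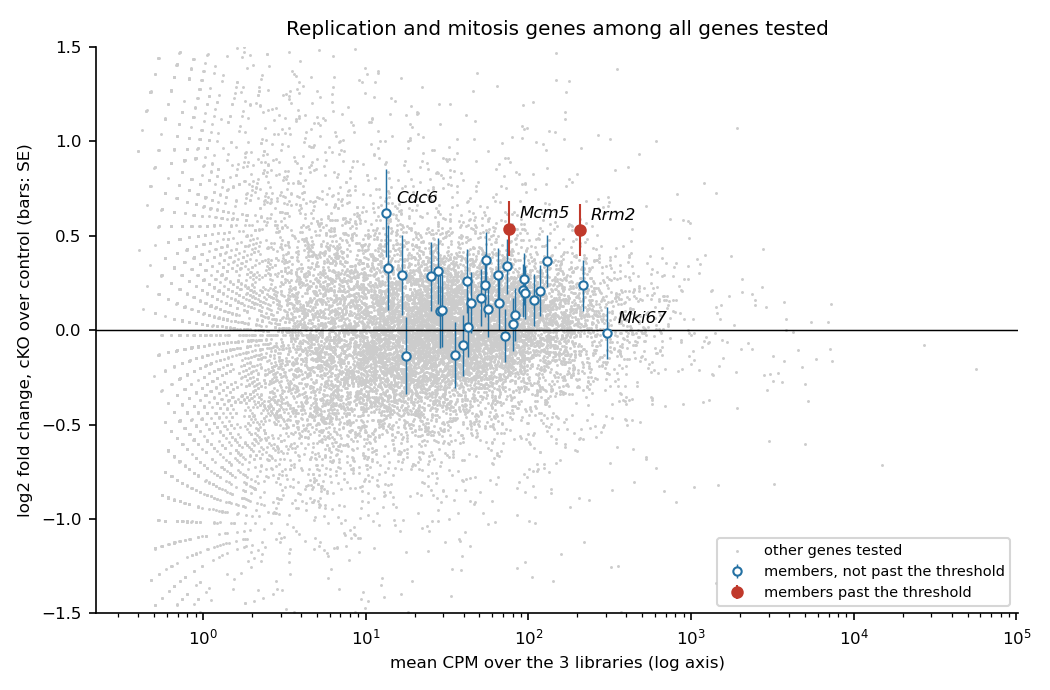
Log2 fold change of cKO over control against mean CPM on a log axis, with grey points for genes tested and circles with SE bars for the 33 members, filled red where the adjusted p was under 0.05. Rrm2 and Mcm5 are the filled circles, Cdc6 is highest at 0.62, and 469 genes lie beyond the axis limits of 1.5 in either direction.

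The smallest changes called among genes at similar levels are a rough guide and not a limit for each member. Within the CPM range of the members 516 genes were called, and the smallest log2 fold changes among them were 0.47 upward and -0.46 downward. The SE of the members ran from 0.14 to 0.23, with a median of 0.15. Cdc6, with the largest SE, was not called at a log2 fold change of 0.62. The 31 members that were not called did not pass after adjustment over all genes tested, which does not show that they were equal. The smallest unadjusted p among them in edgeR were 0.014 for Rrm1, 0.015 for Cdc6, 0.022 for Plk1 and 0.029 for Foxm1. These genes were all on the higher side, and no member on the lower side had an unadjusted p that small.

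Levels among the members are compared here as mean CPM per kb of exon over the 3 libraries, using the union of GENCODE M21 exons, which counts rare long forms in full. Rrm2 was the highest at 75.2 CPM per kb, ahead of Mki67 at 30.3, Cdc20 at 28.9 and Kif20a at 27.1. Cdc6, Ttk and Tyms were the lowest, at 2.55, 2.81 and 2.89 CPM per kb, in an order that changed between libraries. The lowest was Tyms at 2.64 in cKO replicate 1, Ttk at 2.89 in cKO replicate 2 and Cdc6 at 1.88 in the control. Rrm2 was apart from the next gene in each library, at 84.8 and 82.9 CPM per kb in cKO cells and 58.0 in control cells. Mki67 and Cdc20 overlapped, since Cdc20 had 26.5 and 34.5 CPM per kb in cKO cells and 25.8 in control cells while Mki67 had 31.2 and 29.1 in cKO cells and 30.5 in control cells.

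The other genes of the pathway had a median near that of the members and a wider range. Of 126 further replication and mitosis genes, all tested, 2 rose, 1 fell and 123 did not pass, with a median log2 fold change of 0.17 and a range from -0.90 to 1.10. Over all genes tested 3.01% were called higher and 1.9% lower. Both cKO libraries lay above the control for 75 of the 126 and below it for 23, against 36.6% and 37.4% of all genes. In edgeR 22 had an unadjusted p under 0.05 on the higher side and 1 on the lower side, against 8.35% and 7.31% of all genes. The list was made with earlier results of these data known, so its direction is not independent of them.

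Mybl2, which encodes the B-Myb partner of MuvB at mitotic promoters, had 12.4 and 13.2 CPM in cKO cells and 5.96 CPM in control cells. It rose 2.15-fold (log2 1.10 ± 0.27, SE, edgeR adjusted p = 0.0143), on 74 control counts. Chaf1a, a subunit of the factor that places histones on new DNA, had 48.3 and 47.3 CPM in cKO cells and 32.6 CPM in control cells and rose by 0.55 ± 0.16 on the log2 scale (SE, edgeR adjusted p = 0.0474). Both cKO libraries were above the control in each gene. Rpa3, the smallest subunit of the single-strand binding protein, fell to 6.99 and 7.73 CPM in cKO, against 13.8 CPM in the control (log2 -0.90 ± 0.25, SE, edgeR adjusted p = 0.0375). None of these 3 passed in DESeq2, with library totals alone, no filter, a mean of at least 5 CPM, or prior degrees of freedom of 5 or 3, and Chaf1a also missed with DESeq2 size factors in edgeR.

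The other pathway genes given here were among those with the smallest p of their lists, and none of them passed the test. Incenp, the scaffold of the chromosomal passenger complex, had 55.1 and 62.1 CPM in cKO cells and 40.9 CPM in control cells (edgeR adjusted p = 0.0601), while its partners Aurkb and Birc5 had the control between the cKO libraries. Kif4, a chromosome-bound motor, had 43.6 and 42.6 CPM in cKO cells and 31.3 CPM in control cells, and Espl1, the separase that cuts cohesin, had 32.0 and 36.3 CPM in cKO cells and 24.3 CPM in control cells. In these 3 genes the control was the lowest library. Tk1, the thymidine salvage kinase, had 38.5 and 45.9 CPM in cKO cells and 32.4 CPM in control cells, and Dtymk, the next kinase in that path, had 13.6 and 15.7 CPM in cKO cells and 17.7 CPM in control cells. Mis12, a kinetochore subunit, had 38.9 and 34.8 CPM in cKO cells and 28.9 CPM in control cells, and E2f7, a repressor of E2F targets, had 19.4 and 23.2 CPM in cKO cells and 15.8 CPM in control cells. The condensin genes Ncaph and Ncapd3 had log2 fold changes of 0.27 and 0.26.

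Among the other pathway genes by role, the highest list median was that of the spindle, mitotic exit and cytokinesis genes at 0.27 over 28 genes, of which 23 lay above the control in both cKO libraries and 0 passed. The other replication genes had a median of 0.18 over 42 genes, the other kinetochore genes 0.16 over 22, and condensin 0.20 over 8. The other nucleotide synthesis genes had a median of 0.03 over 8 genes, and the E2F, pocket protein and MuvB genes 0.05 over 18. Among the members, the median was 0.24 for the 12 genes of replication and nucleotide synthesis and 0.20 for the 17 genes of mitosis. Differences between these medians were not tested.

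**Figure D4:**
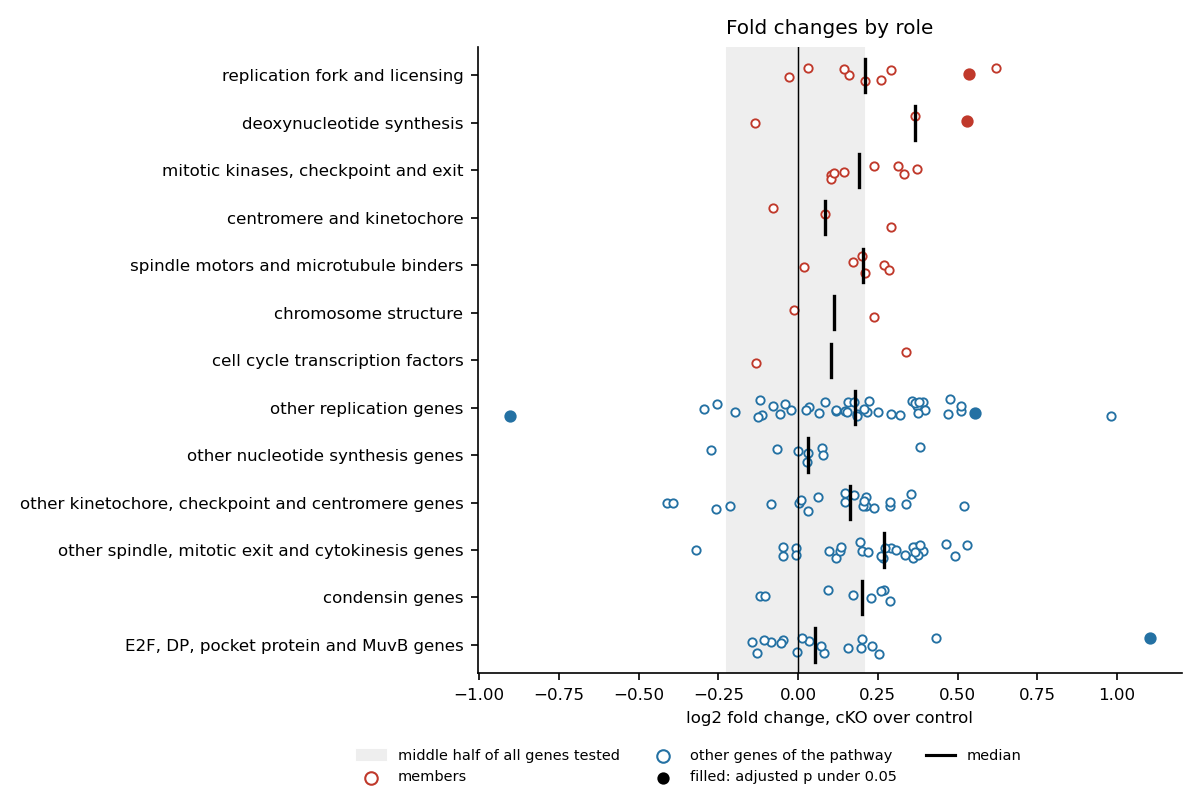
Log2 fold change of cKO over control by role, with a circle per gene (red for the 33 members, blue for the 126 other genes of the pathway, filled where the adjusted p was under 0.05), a bar at each median and grey shading between the quartiles of all genes tested. The filled circles are Rrm2, Mcm5, Chaf1a and Mybl2 on the higher side and Rpa3 on the lower side.

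The cKO libraries differed from each other, in part along with exon length. Of the 33 members, 23 were higher in cKO replicate 2 than in cKO replicate 1, against 47% of genes in the same CPM range. The ratio of cKO replicate 2 to cKO replicate 1 was 1.41 for Aurkb, 1.36 for Birc5, 1.30 for Cdc20, 1.27 for E2f1 and 1.25 for Pcna, all genes with at most 3.40 kb of exon. Rrm2 and Plk1, with 2.77 and 2.20 kb, were as short and had ratios of 0.978 and 1.03. It was 0.934 for Mki67 and 0.899 for Cenpf, with 10.1 and 15.4 kb. Across the 33 members the log2 ratio had a Pearson r of -0.45 and a Spearman rho of -0.32 with exon length, and across 7884 genes in the same CPM range these were -0.38 and -0.43. These points share both libraries, and genes are not independent replicates. The fitted difference between cKO and control had a Pearson r of -0.13 with exon length across the members, and 0.07 across the 7884 genes. The part of length in the members' values was not tested.

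**Figure D5:**
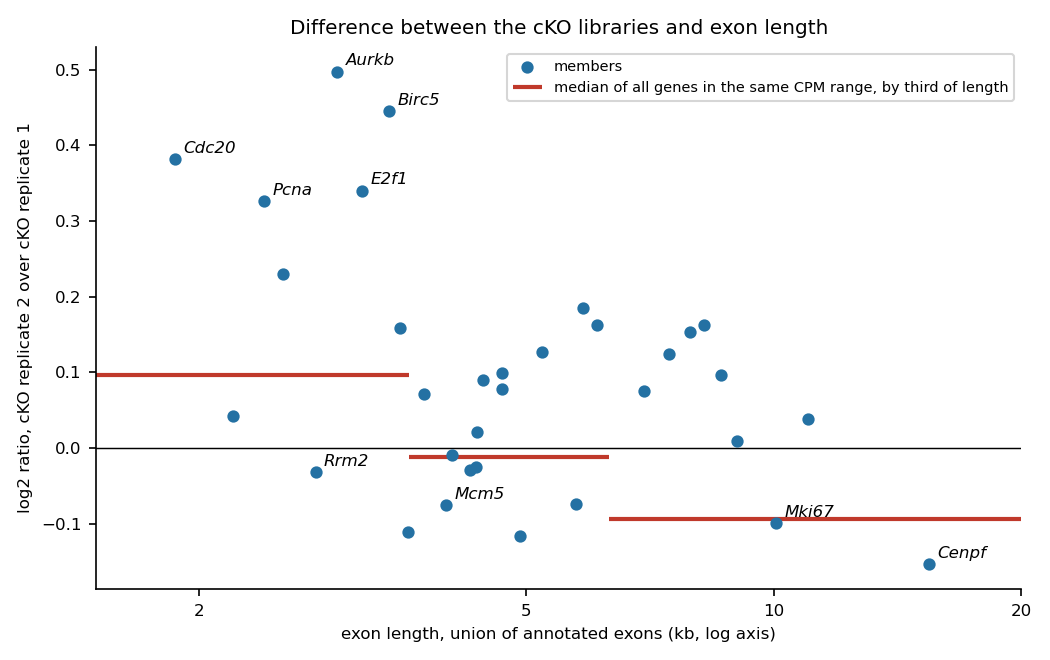
Log2 ratio of cKO replicate 2 to cKO replicate 1 against exon length in kb on a log axis for the 33 members, with red lines at the median of all genes in the same CPM range for the shortest, middle and longest genes. Aurkb, Birc5, Cdc20, Pcna and E2f1 lie highest, Mki67 and Cenpf lie below 0, and the red medians are 0.10, -0.01 and -0.09 from short to long.

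The promoters of the members held the motifs of both phases. RefSeq windows were found for 28 of the 33 members, and 14 of the 28 held the CHR motif TTTGAA, 23 held CCAAT and 5 held TTGGCGC or TTCGCGC, searched on both strands. Of the 9744 tested genes with a window, 13.9% held CHR, 43.1% held CCAAT and 8.27% held an E2F-type motif, and of all 27025 genes with a window, 20.2%, 41.1% and 4.47% did. Of the 14 mitosis members with a window, 10 held CHR and 0 an E2F-type motif, while of the 11 replication and nucleotide members 2 held CHR and 4 an E2F-type motif, which were Mcm3, Mcm5, Mcm6 and Mcm7. Mcm5, the only 1 of these 4 past the test, holds 3 E2F-type matches at -164, -152 and -149 from the RefSeq start site. The last 2 of these matches overlap. The Mcm5 window ends at chr8:75109558, before the GENCODE start at 75109569. Rrm2, the other member past the test, holds none within its window. Mki67 holds all 3 kinds of motif. The windows follow RefSeq start sites, and those of Cdc6, E2f1 and Mcm7 lie wholly inside the GENCODE gene. Cdc6 and E2f1 held none of the motifs in them. Sequence before the GENCODE starts of these genes was not searched, so the counts above may miss motifs there. A match describes the letters of the window and not binding.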

How the data were processed

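The authors deposited whole-number read counts per gene symbol for 2 cKO libraries and 1 control library. Per the labels' protocols, Trizol extracts with a RIN above 8 underwent removal of ribosomal RNA before Ion Proton library preparation. The submitters' processing notes name the builds GRCm38 and GRCh37 without a role for either, and no aligner, counting tool, annotation or strand setting is named there or in the labels.

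Counts were filtered with filterByExpr, scaled with TMM and tested with glmQLFit and glmQLFTest in edgeR 4.0.16 (R 4.3.3), with Benjamini-Hochberg adjustment over the 15529 genes tested and a threshold of 0.05. The estimated prior degrees of freedom were 19.9. The SE is the size of the log2 fold change over the root of F. DESeq2 1.42.0, limma-voom (limma 3.58.1), other scalings, filters and prior degrees of freedom, and leaving out each cKO library were the alternatives. The labels do not say whether the libraries came from separate animals. Xist and Y-linked counts show that the cKO libraries came from cells of different sex. The pair therefore came from different animals and is not a repeat of 1 culture, and the spread between the cKO libraries includes this difference. Intervals cover counting error only.

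Positions and exon lengths come from GENCODE M21 on GRCm38, where each of the 33 symbols matched 1 gene. The members and lists were chosen with earlier results of these data known. Members were named in full if past the threshold, if among the 2 smallest p of their role, or if highest or lowest. The other genes of the pathway were named if past the threshold, or if among the 2 smallest p of their list at a mean of at least 5 CPM. Other members' values are given as description. 1 marker of the leukocyte list is not reported here and enters none of its counts or sums.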

Additional observations from a re-analysis of the deposited data

How the results depend on the processing

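In the main analysis 28 members had a positive log2 fold change, against 7724 of all 15529 genes tested. The count was also 28 under each of the 9 alternatives that kept all 3 libraries. These alternatives reuse the same counts and the same control and hardly shift the fold changes, so the unchanged count is no separate support. For the same reason the median of the members stayed between 0.20 and 0.22 under other scalings, filters and tools. Without a cKO replicate the median lay between 0.13 and 0.27, and 26 to 30 members lay above the control in the remaining library. Of all 15529 genes tested, 5676 lay above the control in both cKO libraries. A further 1962 lay above it in cKO replicate 1 alone and 2081 in cKO replicate 2 alone. Library totals alone gave 25 members above the control in both cKO libraries, against 24 in the main analysis. The calls differed between settings. Rrm2 and Mcm5 passed with DESeq2 size factors in edgeR, in limma-voom and with edgeR's legacy quasi-likelihood method, which was chosen after seeing the data. With library totals alone, no filter, a minimum mean CPM of 5, DESeq2, and prior degrees of freedom of 5 or 3, 0 members were called higher, and likewise 0 pathway genes were called higher and 0 lower. The adjusted p of Rrm2 ran from 0.0206 to 0.560 and that of Mcm5 from 0.0184 to 0.560 over the alternatives. With DESeq2 size factors 1 pathway gene was called higher, and with the legacy method 4 were, in place of 2. Over all genes, 467 were called higher and 295 lower, against 227 and 89 with library totals alone, 0 and 0 with no filter, 201 and 89 with the CPM minimum of 5, 226 and 84 in DESeq2, 151 and 42 with prior degrees of freedom of 5 and 83 and 4 with 3. The estimated prior degrees of freedom were 19.9 in the main analysis and 6.00, 2.03 and 5.58 with library totals alone, no filter and the CPM minimum. No paired analysis was possible because the control has a single library. Depth limited the members with few counts, as the SE was 0.23 for Cdc6 with 122 control counts and 0.14 for Top2a with 2391.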
